A study of Mus musculus with 8 samples.

Results

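The T-box genes encode transcription factors that share a DNA-binding domain, and 8 of them (Tbx1, Tbx2, Tbx3, Tbx4, Tbx5, Tbx15, Tbx18 and Tbx20) were followed through the chromatin maps of 3 cell types, out of 21627 protein-coding genes on chromosomes 1 to 19 and X. They were chosen by name, with earlier results of these data known. For each, the loops with an anchor on the gene body widened by 5 kb on either side were collected, with the topologically associating domains (TADs) and CTCF peaks that touch the same interval. Hi-C, which counts ligated pairs of crosslinked DNA, was done with 2 replicates of each cell type. The v6.5 mouse embryonic stem (ES) cells are a single wild-type male cell line of mixed strain, kept without feeders in LIF. Lens epithelium and lens fibers were microdissected from CD-1 mice at postnatal day 0.5, with 30 lenses pooled per replicate. Both are called epithelium and fiber for short. For CTCF ChIP-seq, made from 200 lenses, 1 sample and 1 peak list each of lens epithelium and lens fiber were analysed here. The study's methods speak of replicates for this assay, and whether a list pools them is not given in the sources used here. The ES cells thus differ from both lens samples in strain, culture and origin as well as in cell type, and these cannot be told apart. The sex of the lens mice is not stated in the study's methods, so sex may differ too. The lists hold no expression values against which the labelled cell types could be checked.

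The authors merged the replicates before calling, so that each cell type has 1 list of loops and 1 of TADs. Replicate spread is therefore unknown and the cell types were not tested against each other. Each count is set beside the share of all genes or loops that meet the same rule. The shares of all genes are not matched for gene length. The median gene is 17.3 kb long, and the genes followed run from 9.33 kb (Tbx2) to 114 kb (Tbx15). The ES cell lists comprised 8459 loops and 3604 TADs, those of epithelium 8005 and 1796, and those of fiber 7682 and 2641. A loop is given by its anchors of 5, 10 or 25 kb, by the observed contacts between them and by the contacts expected from the pixels around it, of which the donut-shaped neighbourhood is used here. Intervals on observed contacts are exact Poisson 95% intervals and cover counting error only. Read depth was not used here, so raw contacts are not compared between cell types. A gene with no loop in a list is one for which no loop passed the caller, which does not show that contacts were absent. Coordinates are from mm10, counted from 1, and gene names from its GRCm38.p6 annotation.

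T-box factors are best known from the embryo. Tbx5 and Tbx4 act in the forelimb and hindlimb, Tbx5, Tbx20, Tbx2, Tbx3 and Tbx18 in parts of the developing heart, Tbx1 in the pharyngeal arches and outflow tract, and Tbx15 in the skeleton and the pattern of the coat. Many developmental genes of this kind are silent in ES cells and carry Polycomb marks there, and CpG-rich promoters are typical of them. Not all are, and neither the expression nor the marks of the genes followed were examined here. A loop in Hi-C is a pair of sites that meet more often than their surroundings do, often but not always with the insulator protein CTCF at the anchors.

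In ES cells all 8 genes had a loop, and 39 distinct loops ended on them. Of all protein-coding genes 37.3% had a loop in that list. In epithelium 4 of the 8 genes had one, with 8 loops in all, beside 36.2% of all genes, and in fiber 5 of 8 had one, with 7 loops, beside 34.5%. The 8 genes had a mean of 5.13 loops in ES cells, 1 in epithelium and 0.875 in fiber, where all genes had 0.650, 0.587 and 0.556. The excess over all genes was largest in the ES cell list. As the genes were chosen with earlier results of these data known, the excess is described only and was not tested. Among 360 other developmental regulators (genes with symbols such as Pax, Sox, Lhx, Hox or Wnt), 70.0% had a loop in ES cells, 58.3% in epithelium and 56.7% in fiber, with means of 2.54, 1.10 and 1.05 loops.

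**Figure D1:**
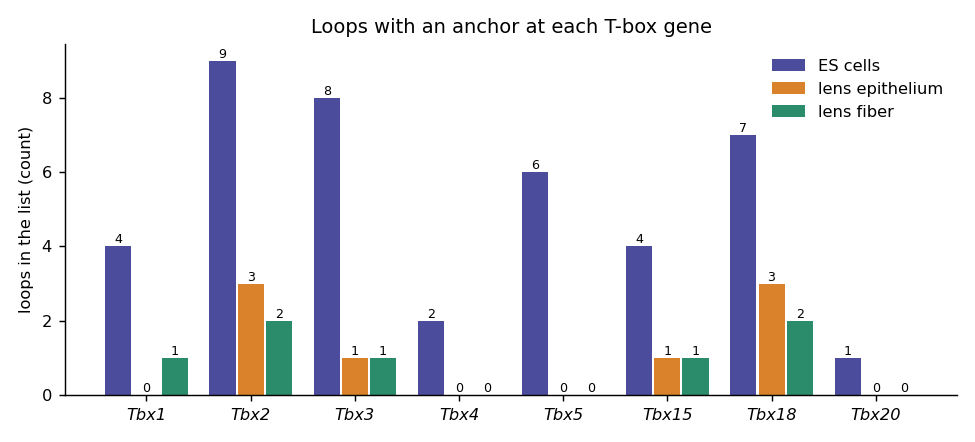
Number of listed loops (y axis, count) with an anchor within 5 kb of each of the 8 T-box genes (x axis), by cell type (ES cells, epithelium, fiber). Each bar is 1 merged list, so there is no error bar. Tbx2 reaches 9 loops in ES cells, and no gene has more than 3 in a lens list.

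Tbx2 had the most loops in ES cells, 9, and 3 in epithelium and 2 in fiber. Tbx3 had 8, 1 and 1, and Tbx18 7, 3 and 2. Tbx15 had 4, 1 and 1, and Tbx1 4, 0 and 1. Tbx5 had 6 loops in ES cells, Tbx4 had 2 and Tbx20 had 1, and these 3 genes had none in either lens list. An ES cell loop with none in either lens list was found for 9.51% of all genes, which is 25.5% of the genes with an ES cell loop. At least 4 loops, the 95th percentile of the genes with any, were listed in ES cells for 6 of the 8 genes, beside 2.84% of all genes and 30.0% of the other developmental regulators; this limit was chosen after the counts were seen.

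The lens counts depend on how far from the gene an anchor may lie. With 25 kb in place of 5 kb on either side, Tbx1 had 2 loops in epithelium and 3 in fiber, and Tbx5 and Tbx20 had 1 in each, so that 7 of the 8 genes had a lens loop, beside 51.7% of all genes in epithelium and 49.5% in fiber. Tbx4 still had none. The loop added at Tbx20 spanned 350 kb in epithelium and 340 kb in fiber, from the gene Dpy19l2 to a site with no gene, and that at Tbx5 spanned 320 and 310 kb.

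Tbx2 and Tbx4 lie side by side on chromosome 11, Tbx2 at chr11:85832615-85841948 and Tbx4 at chr11:85886367-85916097, with 44.4 kb between them. They were joined in ES cells by a 45 kb loop, with 124 observed contacts (interval 103 to 148) where 27.8 were expected. Both genes were also joined to Lhx1, a LIM homeobox gene of the head organizer and kidney, which lies 1307 kb to the left of Tbx2. The loop from Tbx2 to Lhx1 spanned 1315 kb and had 29 contacts (19.4 to 41.7) where 1.47 were expected. The loop from Tbx4 to Lhx1 spanned 1370 kb and had 33 (22.7 to 46.3) where 4.15 were expected. Neither lens list held any of these 3 loops. The table of RefSeq promoters (GRCm38.p6, 250 bases before to 50 after the start) has an entry for 4 of the 8 genes. The entries for Tbx4 (chr11:85896515-85896814, plus strand) and Lhx1 (chr11:84525485-84525784, minus strand) are shown because they lie whole inside the anchors of the 1370 kb loop. The Tbx4 entry is an internal start, inside the gene body that begins at 85886367, and not the 5' end of the gene. CpG sites are in capitals.
Tbx4: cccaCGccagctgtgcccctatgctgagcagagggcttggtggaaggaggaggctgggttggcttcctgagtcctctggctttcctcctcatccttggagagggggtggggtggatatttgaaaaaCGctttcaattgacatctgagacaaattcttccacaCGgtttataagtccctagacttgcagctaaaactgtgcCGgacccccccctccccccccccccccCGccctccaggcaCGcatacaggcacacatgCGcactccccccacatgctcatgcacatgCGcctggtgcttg
Lhx1: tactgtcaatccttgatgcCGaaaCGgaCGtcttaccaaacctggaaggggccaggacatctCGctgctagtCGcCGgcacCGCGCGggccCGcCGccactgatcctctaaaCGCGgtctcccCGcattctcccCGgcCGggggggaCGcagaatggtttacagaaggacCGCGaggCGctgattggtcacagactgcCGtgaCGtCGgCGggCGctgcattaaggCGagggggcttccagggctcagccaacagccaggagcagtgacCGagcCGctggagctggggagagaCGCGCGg
Lhx1 has 31 CpG sites in these 300 bases and the internal Tbx4 entry has 8, where the median of all 32619 promoters is 7 and the 90th percentile 31.

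The remaining ES cell loops of Tbx2 ran mostly to its neighbours. On the left, 3 ended in Bcas3, at 115, 300 and 450 kb, and on the right 2 ended in Brip1, a DNA helicase gene, at 210 and 330 kb. One of 2900 kb ended at Unc45b and Slfn5, and one of 10500 kb at Hoxb2, Hoxb3 and Hoxb4. The Hoxb loop had 24 contacts (15.4 to 35.7) where 3.57 were expected. What the lens lists held at Tbx2 were the loops to the neighbours. Lens epithelium had loops of 450 and 325 kb to Bcas3 and one of 325 kb to Brip1, and fiber had loops of 440 and 310 kb to Bcas3. The fiber list also held a loop of 310 kb to Brip1 whose anchor began at 85850001, just beyond the 5 kb limit.

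**Figure D2:**
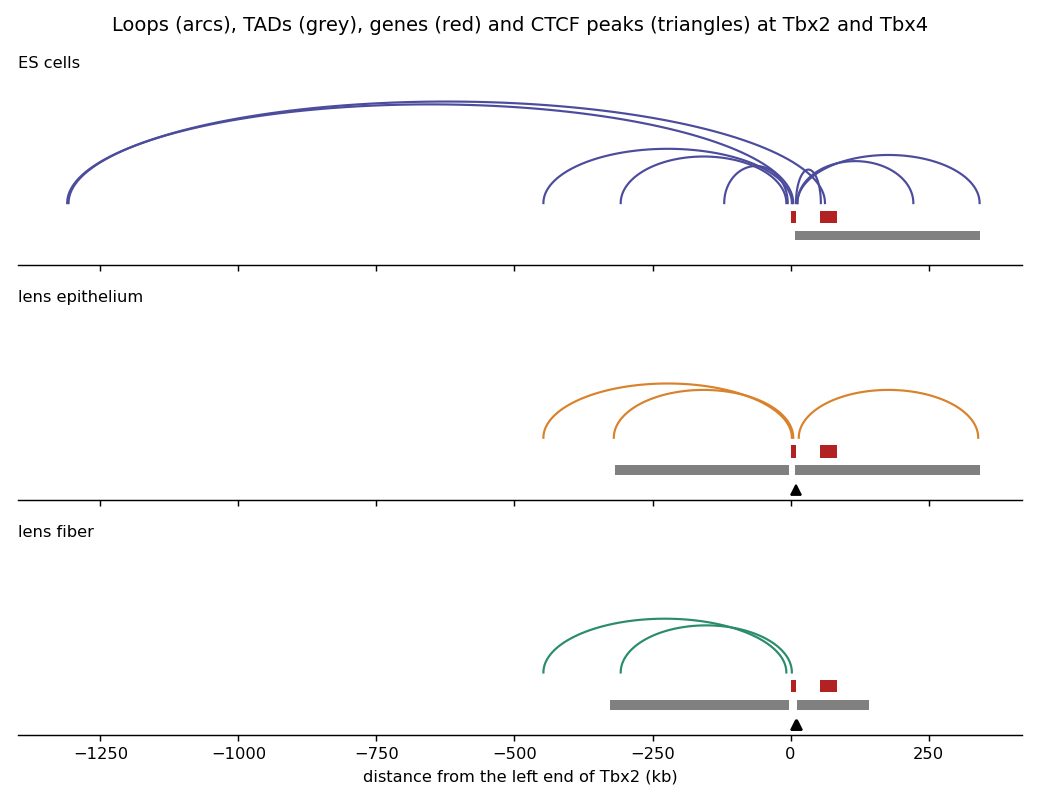
Loops (arcs), TADs (grey bars), genes (red) and CTCF peaks (triangles, lens only) around Tbx2 and Tbx4, by distance from the left end of Tbx2 in kb; arc height grows with loop size and has no other scale. Only Tbx2 and Tbx4, the loops anchored within 5 kb of them, and the TADs and CTCF peaks touching that interval are drawn. Other features of the region are not shown, and loops reaching outside the panel are left out. The arcs to Lhx1, 1315 and 1370 kb long, appear in the ES cell panel only, and those to Bcas3 in all 3.

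Tbx3 and Tbx5 form a like pair on chromosome 5, at chr5:119670534-119684724 and chr5:119796514-119885220, 112 kb apart, with Lhx5, a LIM homeobox gene of the forebrain, 547 kb to the right of Tbx5. In ES cells Tbx3 and Tbx5 were joined by a loop of 165 kb, with 27 contacts (17.8 to 39.3) where 6.36 were expected. Tbx3 was joined to Lhx5 over 765 kb, with 40 contacts (28.6 to 54.5) where 1.90 were expected, a ratio of 21.0. Tbx5 was joined to Lhx5 by 2 loops, of 595 and 630 kb, with 33 and 31 contacts. Each pair of T-box genes thus had a loop within the pair and loops from both genes to a LIM homeobox gene. Tbx5 also had a loop of 35 kb inside its own body, with 55 contacts where 20.3 were expected.

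Both genes were joined to Uncx, a homeobox gene of the somites, over 19880 kb from Tbx3 and 19700 kb from Tbx5. The loop from Tbx3 had 16 contacts (9.15 to 26.0) where 0.607 were expected, a ratio of 26.4, the highest among the 39 loops. The loop from Tbx5 had 23 (14.6 to 34.5) where 2.79 were expected. The Uncx promoter (chr5:139543648-139543947, plus strand) is shown because it lies in the far anchor of both, and it has 26 CpG sites.
Uncx: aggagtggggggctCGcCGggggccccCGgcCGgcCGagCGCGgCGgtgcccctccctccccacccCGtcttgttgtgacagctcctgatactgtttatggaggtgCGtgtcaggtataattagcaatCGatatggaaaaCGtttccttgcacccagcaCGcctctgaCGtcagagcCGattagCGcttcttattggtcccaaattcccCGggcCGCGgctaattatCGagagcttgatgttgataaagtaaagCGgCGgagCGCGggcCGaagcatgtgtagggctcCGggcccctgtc
Tbx3 was further joined to Nkx6-1 over 18000 kb and to Barhl2 over 13200 kb, homeobox genes of the nervous system, to Tesc over 1625 kb and to Hrk, which promotes cell death, over 1500 kb. Tbx5 was joined to the stretch with Hrk and Fbxw8 over 1675 kb. A loop of 650 kb from Tbx3 ended 101 kb from the nearest gene, Rbm19.

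In the lens lists Tbx3 had a single loop in each, to the left. It spanned 905 kb in epithelium, with 31 contacts (21.1 to 44.0) where 5.63 were expected, and 810 kb in fiber, with 60 (45.8 to 77.2) where 15.2 were expected. Both ended in the gene-poor stretch beside Med13l, a subunit gene of Mediator, 14.6 and 105 kb from it. ES cells had a loop of 810 kb with both midpoints within 10 kb of the fiber loop, whose right anchor lay too far from Tbx3 to be counted, and each lens list held a counterpart of the other's loop in the same way.

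**Figure D3:**
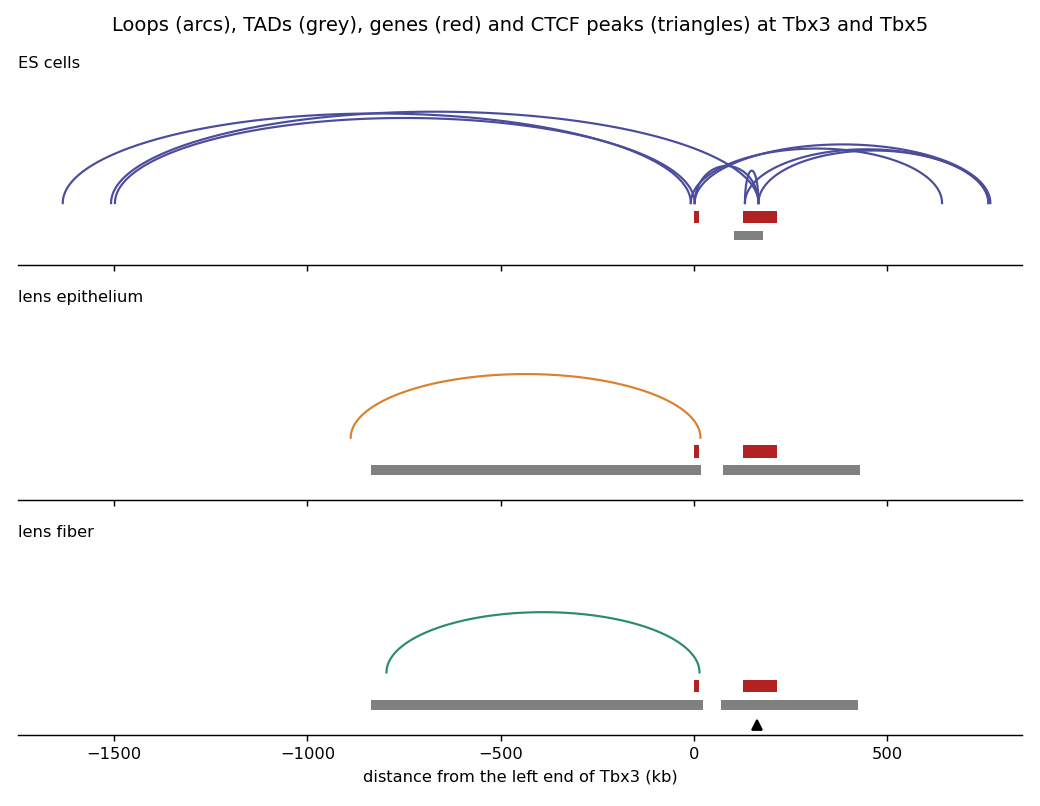
Loops (arcs), TADs (grey bars), genes (red) and CTCF peaks (triangles, lens only) around Tbx3 and Tbx5, by distance from the left end of Tbx3 in kb; arc height grows with loop size and has no other scale. Only Tbx3 and Tbx5, the loops anchored within 5 kb of them, and the TADs and CTCF peaks touching that interval are drawn. Other features of the region are not shown, among them an 810 kb ES cell loop on the left. Loops to sites outside the panel are left out. ES cells show arcs of 595 to 765 kb to Lhx5 on the right, and each lens panel has 1 arc to the left.

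Tbx1 (chr16:18580979-18590671) had its 4 ES cell loops at very different distances. The closest, 35 kb, ended at Gp1bb and Septin5, with 93 contacts where 25.8 were expected. Others ended at Scarf2 over 785 kb, at Ephb3, a receptor tyrosine kinase gene, over 2650 kb, and at Sim2, a bHLH-PAS factor gene, over 75500 kb. The Sim2 loop rested on 14 contacts (7.65 to 23.5) where 0.928 were expected. The only lens loop of Tbx1, in fiber, spanned 120 kb to Txnrd2, a mitochondrial thioredoxin reductase gene, with 69 contacts where 30.8 were expected. The Tbx1 promoter entry at chr16:18588850-18589149 (minus strand), inside the gene body, is shown because it lies in the anchors of all 4 ES cell loops and of the fiber loop. A second entry, at the right end of the body (chr16:18590622-18590921, minus strand), is not shown. That entry lay in anchors of 2 ES cell loops and 0 fiber loops, and has 16 CpG sites and 58.3% G and C. The entry shown has 26 CpG sites and is 69% G and C, where the median promoter is 53%.
Tbx1: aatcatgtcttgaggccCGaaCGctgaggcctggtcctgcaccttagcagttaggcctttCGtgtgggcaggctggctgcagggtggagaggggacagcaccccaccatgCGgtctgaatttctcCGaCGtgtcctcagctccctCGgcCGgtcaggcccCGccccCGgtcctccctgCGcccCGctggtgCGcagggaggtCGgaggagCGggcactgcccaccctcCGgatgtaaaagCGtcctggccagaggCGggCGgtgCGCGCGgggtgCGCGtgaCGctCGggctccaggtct

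Tbx18 (chr9:87702800-87731260) had 7 loops in ES cells. Those of 12875 and 17975 kb ended at Onecut1 and at Foxb1, and one of 3650 kb at Zic4, all transcription factor genes. One of 2000 kb ended at Ankrd34c and one of 590 kb at Nt5e, the gene of an ecto-nucleotidase. The other two, of 490 and 2150 kb, ended away from genes. In epithelium Tbx18 had loops of 310, 350 and 475 kb and in fiber of 300 and 500 kb, and none of these 5 ended at a protein-coding gene. The nearest were Cep162 on the left, 164 kb away, and Nt5e on the right, 103 to 228 kb away. The promoter of Tbx18 (chr9:87731211-87731510, minus strand), with 15 CpG sites, is shown because it lay whole in an anchor of 6 ES cell loops and of all 3 epithelium loops, but of neither fiber loop, whose anchors ended at 87720000 and 87730000.
Tbx18: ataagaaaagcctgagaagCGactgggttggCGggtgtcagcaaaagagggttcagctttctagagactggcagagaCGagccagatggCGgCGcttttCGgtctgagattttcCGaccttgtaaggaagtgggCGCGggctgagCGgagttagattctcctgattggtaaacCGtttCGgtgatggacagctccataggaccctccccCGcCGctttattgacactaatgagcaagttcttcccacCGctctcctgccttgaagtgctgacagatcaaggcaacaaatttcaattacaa
None of the 5 promoters printed holds GGTGTGA, the core of the T-box half-site, on either strand, and 3.98% of all promoters do.

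Tbx15 (chr3:99240348-99354260) had 4 loops in ES cells, most of them long. Among its ES cell loops, one of 28375 kb ended at Neurog2, a proneural gene, and one of 31875 kb at Lef1, which mediates Wnt signals. Each had 14 contacts, where 1.15 and 1.08 were expected. One of 325 kb ended at Hao2. In the lens lists Tbx15 had 1 loop of 700 kb to Spag17, a cilium gene, found in both, with 36 contacts (25.2 to 49.8) where 11.8 were expected in epithelium and 197 (170 to 227) where 70.2 were expected in fiber, the latter with wider anchors. Tbx20 (chr9:24720812-24774303) had 1 loop, in ES cells, of 280 kb to a site 63.1 kb from Herpud2, with 36 contacts where 7.72 were expected. Its promoter, with 26 CpG sites, lay in no anchor of that loop.

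**Figure D4:**
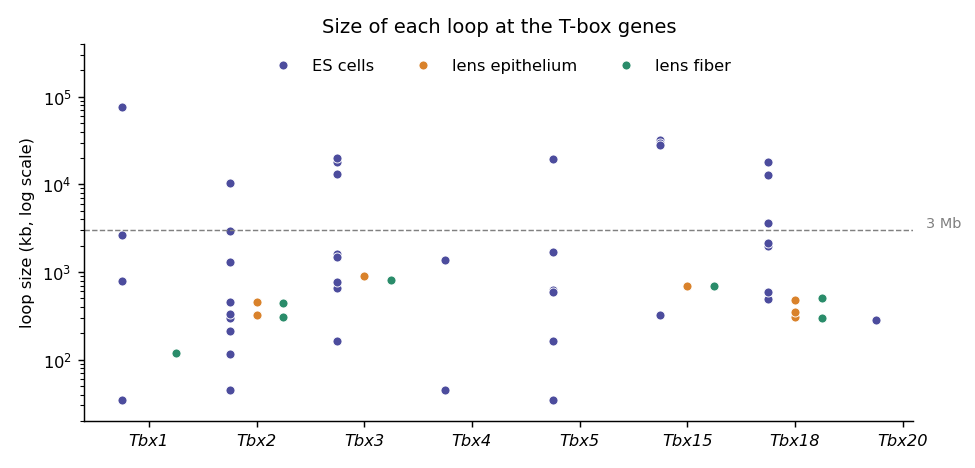
Size of every loop (y axis, kb, log scale) at each T-box gene (x axis), 1 point per loop, by cell type; the dashed line is at 3 Mb. A loop joining a pair of these genes appears at both. In the ES cell list 12 of 39 loops lie above the line, from 3650 to 75500 kb, and the lens points lie between 120 and 905 kb.

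The ES cell loops were long. Their median was 1370 kb (order-statistic 95% interval 590 to 2900 kb), against 220 kb for the whole list. It was 590 kb over the loops with anchors of 5 or 10 kb, against 165 kb for such loops of the list, and 785 kb without loops over 20 Mb, against 220 kb. Of the 39, 12 (30.8%) were longer than 3 Mb, beside 3.72% of the list. In epithelium the median was 400 kb and in fiber 440 kb, beside 250 and 270 kb for the lists, and no lens loop at these genes was over 1 Mb. Loops over 3 Mb made up 1.05% and 1.07% of the lens lists. The 12 long loops came from Tbx1, Tbx2, Tbx3, Tbx5, Tbx15 and Tbx18, had 14 to 24 contacts each where 0.607 to 3.57 were expected, and 9 of them had anchors of 25 kb. Every one of the 12 ended at a gene for a transcription factor. Of these, 6 ended at the list of regulators by symbol. The other 6 ended at Sim2, Barhl2, Uncx, Onecut1 or Lef1, which that list does not hold and which were picked out from the partners themselves. How often the 315 loops over 3 Mb of the whole ES cell list end at such genes was not computed. The trait is therefore not shown to be particular to the T-box genes.

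**Figure D5:**
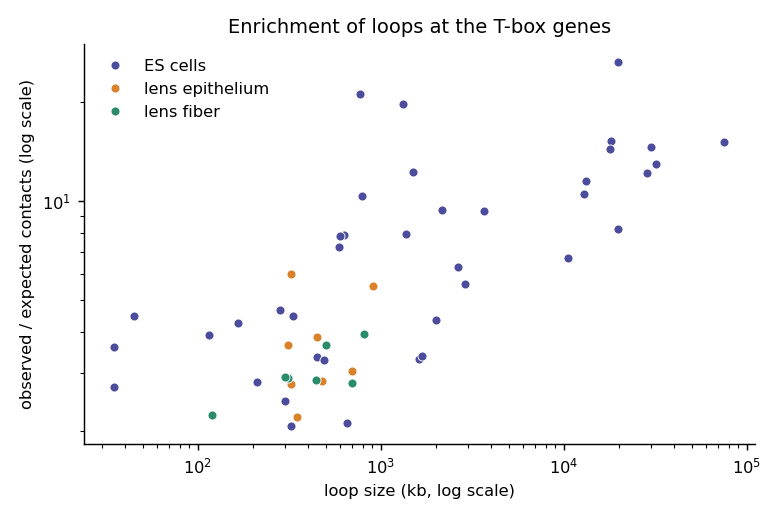
Observed over expected contacts (y axis, log scale) against loop size (x axis, kb, log scale) for each loop at the T-box genes, 1 point per loop. ES cell loops run from a ratio of 2.07 to 26.4, epithelium from 2.22 to 6.02 and fiber from 2.24 to 3.95.

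Of the 39 ES cell loops, 13 (33.3%) ended at another regulator of the list, beside 6.89% of the ES cell loops at any protein-coding gene. These 13 include the 2 loops between T-box genes. The share among loops at the other 360 developmental regulators was not computed, so the trait is not shown to be particular to the T-box genes. None of the 8 loops in epithelium and none of the 7 in fiber did, beside 2.42% and 2.48% of the lens loops. The median ratio of observed to expected contacts was 7.22 in ES cells, 3.35 in epithelium and 2.90 in fiber, beside 3.06, 3.05 and 2.83 for the lists. The lists were not matched for loop size, so the ratios are not a comparison of like loops. ES cell loops over 3 Mb had ratios of 6.72 to 26.4, and the 765 kb loop from Tbx3 to Lhx5 had 21.0.

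Few of the ES cell loops recurred in the lens. With both midpoints within 10 kb, 3 of the 39 (7.69%) had a counterpart in either lens list, beside 43.0% of all ES cell loops, and all 3 were loops of Tbx2 to Bcas3 or Brip1. Within 25 kb, 4 of the 39 did, the added one being the 490 kb loop of Tbx18, with a counterpart in both lens lists. The share of all ES cell loops at 25 kb was not computed. Taking only loops of up to 1 Mb, 3 of 18 (16.7%) did, beside 45.1%. Between the lens cell types, 5 of the 8 epithelium loops had a counterpart in fiber, beside 55.5% of the epithelium list.

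TADs touched 6 of the 8 genes in ES cells, beside 43.4% of all genes, 5 in epithelium, beside 22.8%, and 5 in fiber, beside 31.6%. A border fell at Tbx2 in all 3 lists. In ES cells and epithelium a TAD of 335 kb with Tbx4 and Brip1 began at 85840001, inside Tbx2, and held 20.9% of its body. In the lens lists a further TAD on the left, of 315 kb in epithelium and 325 kb in fiber, ended at 85830000, 2.62 kb before Tbx2. In fiber the right TAD began at 85845001 and measured 130 kb, so that the body of Tbx2 lay whole between 2 TADs. Tbx3 was in no ES cell TAD but at the right end of a lens TAD of 855 kb in epithelium and 860 kb in fiber, whose border lay 5.28 and 10.3 kb past the gene. Tbx5 had 60.3% of its body in an ES cell TAD of 75 kb and lay whole in a lens TAD of 355 kb in both lens cell types. Tbx20 lay whole in a TAD of 405 kb in ES cells, 335 kb in epithelium and 370 kb in fiber. Tbx1, in 190 kb, and Tbx15, in 1275 kb, were in a TAD in ES cells but in neither lens list, and Tbx18 was in none.

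CTCF peaks were found at 2 of the 8 genes in epithelium, beside 31.2% of all genes, and at 5 in fiber, beside 45.9%. Tbx18 had the strongest, inside its body, with a summit at 87708337 in epithelium (fold enrichment 9.20, stronger than 93.7% of that list) and 87708371 in fiber (8.80, stronger than 80.0%). At Tbx2 a peak was shared, 1413 bp right of the gene in epithelium and 1494 bp in fiber, with fold enrichments of 5.34 in epithelium and 6.89 in fiber, and a further fiber peak lay 263 bp from the gene with 6.85. The epithelium peak lay 3.36 kb inside the epithelium TAD that begins at 85840001. The fiber TAD begins at 85845001, and the nearer fiber peak lay 1.56 kb outside it. Tbx1 had 2 peaks in fiber, 367 bp left and 1195 bp right of the body, with fold enrichments of 5.90 and 7.59, and none in epithelium, where the nearest summit was 36.1 kb away. The fiber peaks in Tbx5 (3.95) and Tbx20 (3.62) were among the weakest, above 2.60% and 1.08% of the list. Tbx3, Tbx4 and Tbx15 had none. The fiber list is the larger, with 23868 peaks against 16433, and the part of this in the difference between the lens cell types was not tested.

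A CTCF peak lay at both anchors of 1 of the 8 epithelium loops, beside 15.7% of the list, and of 1 of the 7 fiber loops, beside 39.1%. That loop was one of Tbx2 to Bcas3 in epithelium and the loop of Tbx15 to Spag17 in fiber. No CTCF list of ES cells was used. Set against the epithelium peaks, 26 of the 39 ES cell loops had a peak at neither anchor, beside 43.2% of all ES cell loops, and 0 had one at both, beside 14.1%. Set against the fiber peaks, 19 had a peak at neither anchor, beside 23.8%, and 4 had one at both, beside 33.2%.

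The other 9 T-box genes (T, Eomes, Tbr1, Tbx6, Tbx10, Tbx19, Tbx21, Tbx22 and Mga) had fewer loops than the genes followed above. In ES cells 5 of the 9 had any, beside 37.3% of all genes. These were 11 loops in all, of which 4 were at Eomes and 2 each at T, Tbr1 and Mga. In each lens list 2 of the 9 had one, Eomes and Mga, with 3 loops in epithelium and 2 in fiber. The shares of all genes were 36.2% in epithelium and 34.5% in fiber. A CTCF peak was listed at 4 of the 9 in epithelium, beside 31.2% of all genes, and at 7 in fiber, beside 45.9%.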

How the data were processed

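Hi-C loops, TADs and CTCF peaks were taken from the deposited lists, which use mm10. Per the labels and the study's methods, the authors aligned reads with BWA, built maps with Juicer, merged replicates, and called loops with HiCCUPS (juicer_tools 2.13.06 in the header) and TADs with Arrowhead. For each deposited loop, observed contacts are a raw count, expected contacts a signal modelled by the authors' HiCCUPS run, and FDR values q-values from that run. The deposited TAD score was not used. The authors called CTCF peaks with MACS2, and the deposited peaks carry a fold enrichment and the −log10 of a q-value.

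The members and lists were chosen with earlier results of these data known. Genes named are the members, genes within 5 kb of a partner anchor (otherwise the nearest) and genes sharing a TAD. Loop size is the distance between anchor midpoints, and shared loops have both within 10 kb. Overlap needed 1 bp. Counts and intervals were computed in Python 3.11.15 (pandas 2.3.3, numpy 2.4.6, scipy 1.17.1), with matplotlib 3.10.9 for plots, and the counting was tested on simulated data. No column of values went unmapped to a group. Alternatives changed the flank, anchor width, FDR limit, sharing rule, TAD rule and peak filter. One result that names a withheld item is not reported here.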

Additional observations from a re-analysis of the deposited data

How the results depend on the processing

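Of 60 alternative values, 41 stayed within 1.5 times the reported count or within the interval of the reported median, and 19 did not, though the interval of the ES cell median is wide and that median of 1370 kb fell to 590 kb with anchors of 5 or 10 kb and to 785 kb without loops over 20 Mb; the causes were not tested beyond the fewer or more features each rule admits. With no flank, loops fell to 5 and genes with a loop to 2 in lens epithelium, and CTCF peaks to 1 in lens epithelium and 3 in lens fiber, 1 of them shared. With 25 kb, loops rose to 14 in lens epithelium and 14 in lens fiber, genes with a loop to 7 in lens epithelium, and fiber peaks to 14. Anchors of 5 or 10 kb alone left 23 loops in ES cells and 5 in lens epithelium. With all 4 FDR values below 0.01, 36 ES cell loops remained. Those that dropped out were Tbx2 to Hoxb (largest FDR 0.0137), Tbx15 to Neurog2 (0.0111) and the 300 kb loop of Tbx2 to Bcas3 (0.0636). The last is among the ES cell loops counted as shared with the lens. In lens epithelium 7 loops remained, without the 325 kb loop of Tbx2 to Brip1 (0.0648). In lens fiber 6 remained, without the 440 kb loop of Tbx2 to Bcas3 (0.0347). Both are lens counterparts of ES cell loops counted as shared. When both anchors had to overlap, 2 epithelium loops were shared with lens fiber. TADs of at least 200 kb numbered 3 in ES cells. The stronger 50% of peaks left 1 in lens epithelium and 4 in lens fiber, 1 of them shared. Loops with CTCF at both anchors numbered 4 in lens fiber with anchors widened by 5 kb, and with the peaks of the other lens cell type 3 in lens epithelium and 0 in lens fiber.

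No paired analysis was possible because the authors merged the replicates into 1 list per cell type. Likewise, leaving out a replicate was not run.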
